A study of Mus musculus with 6 samples.

Results

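The 34 genes described here act in DNA replication and mitosis, and they were followed through a lipopolysaccharide (LPS) response in macrophages of 2 genotypes. They were chosen by name as replication and mitosis genes, and each was represented by the probe set with the highest mean over 6 arrays among those that the platform annotation assigns to that symbol alone. Of the 34, 33 had such a probe set and 31 lay above a floor on low values, out of 18194 genes with a probe set and 13587 above the floor. A gene passed the floor if any array placed it at or above the median of all 45101 probe sets on that array. Tyms, which makes thymidylate, read 2.56 to 3.11 and Aurkb, a mitotic kinase, read 2.89 to 3.13, and both stayed below the floor. The expression of Ccnb1, a mitotic cyclin, was not analysed here.

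The cells were thioglycollate-elicited peritoneal macrophages, which are recruited into the abdominal cavity by an irritant. They came from wild-type mice and from LysM-Cre+;Akirin2fl/fl mice, called Akirin2 KO below, and the labels place both on the mixed C57BL/6 x 129Sv strain. Cells were left unstimulated (0 h) or given 100 ng/ml of LPS, which stems from the outer membrane of Gram-negative bacteria, for 2 or 4 h, with 1 array for each of the 6 conditions. LysM-Cre acts in the myeloid lineage, so other cell types of the cavity keep Akirin2, and the wild-type mice are not described as carrying Cre or the floxed allele. The labels give no age and no number of mice, and leave it unsaid whether the same animals supplied all 3 samples of a genotype.

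A cell that enters the cycle loads the ring-shaped MCM helicase onto replication origins, copies its DNA with the sliding clamp PCNA, and then condenses and separates its chromosomes under cyclin-dependent, Aurora and Polo-like kinases. Most of these genes are transcribed in waves, the replication genes under E2F factors before S phase and the mitosis genes under a repressor complex called DREAM and the factors B-MYB and FOXM1 before division. Recruited peritoneal macrophages are largely post-mitotic, and macrophages that do divide commonly leave the cycle when they meet LPS. RNA levels of these genes in a bulk sample reflect both how many cells are cycling and how much RNA each holds, and fewer cycling cells and less RNA per cell cannot be told apart here.

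Values are the deposited log2 expression values made with RMA, which removes background, gives all arrays the same quantiles and reduces each probe set to 1 value. Array medians lay between 3.18 and 3.23 and the 75th percentile of each array between 4.29 and 4.40, so a gene near 3.2 sits in the middle of all probe sets. Of the 31 genes above the floor, 10 reached the 75th percentile on all 6 arrays, namely Mcm3, Mcm4, Mcm5, Mcm6, Pcna, Rrm2, Ccnd1, Nusap1, Tpx2 and Mki67. Another 15 reached it on no array, among them Cdc6, Cdc45, Ccnb2, Chek1, Aurka, Plk1, Bub1, Bub1b, Cdc20, Ube2c and Kif11. Low values are compressed on arrays, so small differences of those genes carry less information. Over the 6 arrays, 10 genes varied by less than 0.5, and 6 varied by 1 or more, which were Mcm2, Mcm6, Mcm7, Ccnd1, Mki67 and Top2a.

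Akirin2 itself read 7.43, 7.47 and 7.33 in wild-type cells and 5.18, 5.54 and 4.91 in KO, a fall of 2.20 in limma (SE 0.14, adjusted p = 0.000328). The 15 macrophage markers tested averaged 8.47 to 9.0 on the 6 arrays. Averages for B cell markers were 3.52 to 4.01, for T and NK cell markers 3.12 to 3.36, and for neutrophil and monocyte precursor markers 3.10 to 3.30, while 0 of 3 erythroid markers lay above the floor. Higher averages were those of monocyte markers, 6.26 to 7.77, mesothelial and fibroblast markers, 4.55 to 5.12, and neutrophil markers, 4.30 to 4.50. Arrays correlated at 0.958 to 0.989 over all probe sets.

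LPS effects were tested in an additive limma fit over the 6 arrays, with time and genotype as terms and Benjamini-Hochberg adjustment over 13587 genes at 0.05. Because no condition has a replicate, the error of this fit is the departure of the arrays from additivity, which stands in for replicate spread. A fitted time effect is an average over both genotypes.

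Mki67, the gene of the proliferation antigen Ki-67 that coats mitotic chromosomes, had by far the widest swing of the 31 genes. It read 5.45, 7.56 and 7.03 at 0, 2 and 4 h in wild-type and 4.93, 7.22 and 6.37 in Akirin2 KO. All 4 stimulated arrays were above both unstimulated ones, and in each genotype the 2 h array was the highest. Mki67 rose by 2.19 at 2 h, or 4.58-fold (SE 0.15, limma adjusted p = 0.000101), and by 1.51 at 4 h, or 2.84-fold (SE 0.15, adjusted p = 0.000387). The 2 h increase was the 71st highest of 13587 genes. From 2 to 4 h the difference was -0.69 (SE 0.15, limma adjusted p = 0.0640). Only 1 probe set represents Mki67, so settings that change the floor, the probe sets or eBayes cannot move its estimated difference. Under the 13 other settings that were run, its increase stayed between 2.07 and 2.32 at 2 h and between 1.39 and 1.62 at 4 h, past the threshold each time.

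**Figure D1:**
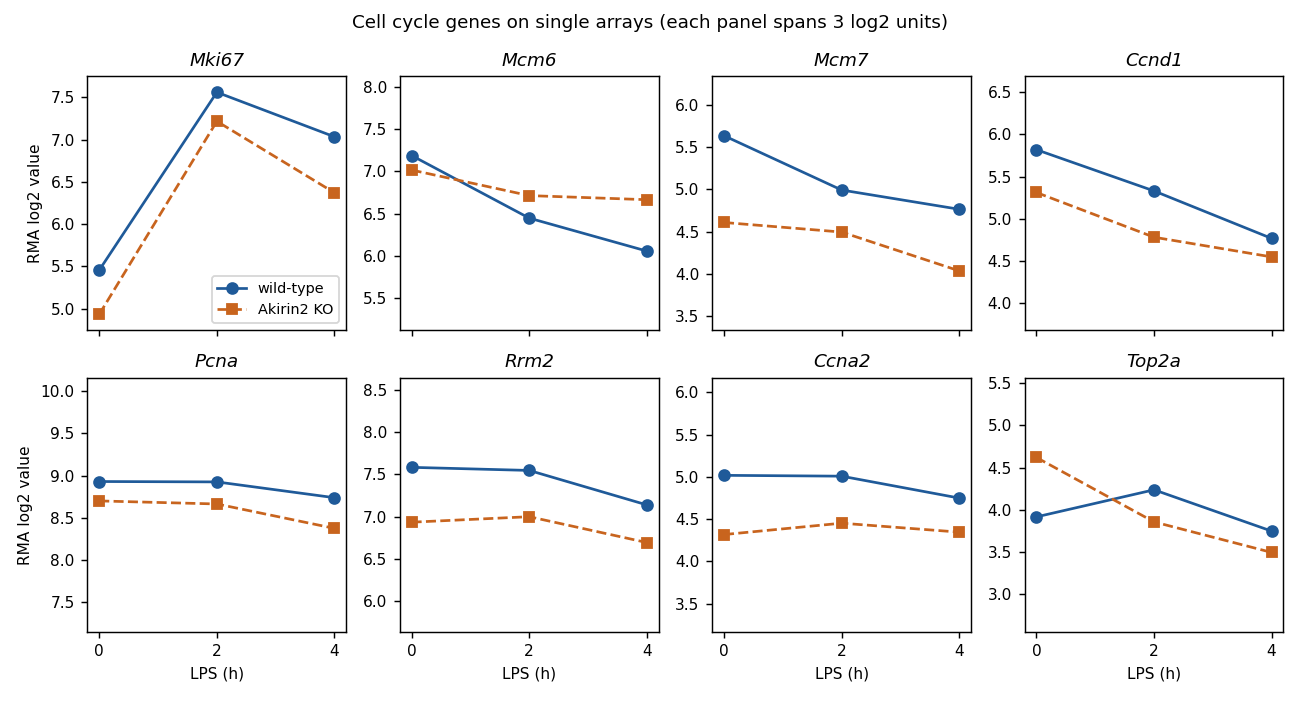
Deposited RMA log2 values (y axis, 3 log2 units in every panel) against hours of LPS (x axis) for 8 cell cycle genes, with circles and solid lines for wild-type, squares and dashed lines for Akirin2 KO, and 1 array for each point. Mki67 climbs from 5.45 to 7.56 in wild-type and from 4.93 to 7.22 in KO by 2 h, Ccnd1 declines in both genotypes, and the wild-type points of Mcm7, Pcna, Rrm2 and Ccna2 all lie above the KO points.

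Among the 31 genes, Mki67 was the 1 called higher at 2 h and 0 were called lower, where 3.96% of all tested genes were called higher and 2.89% lower. At 4 h, 1 gene rose and 3 fell, against 7.76% and 7.61% of all genes. The share of the cell cycle genes that fell at 4 h, 9.68%, is near that background, so these counts say nothing about the genes as a group. Their median difference was -0.04 at 2 h and -0.14 at 4 h, beside -0.04 and -0.03 over all tested genes. Between 2 and 4 h, 0 of the 31 were called in limma, where 2.67% of all genes were, and 4 had an unadjusted p under 0.05, which is 12.9% beside 13% of all genes.

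**Figure D2:**
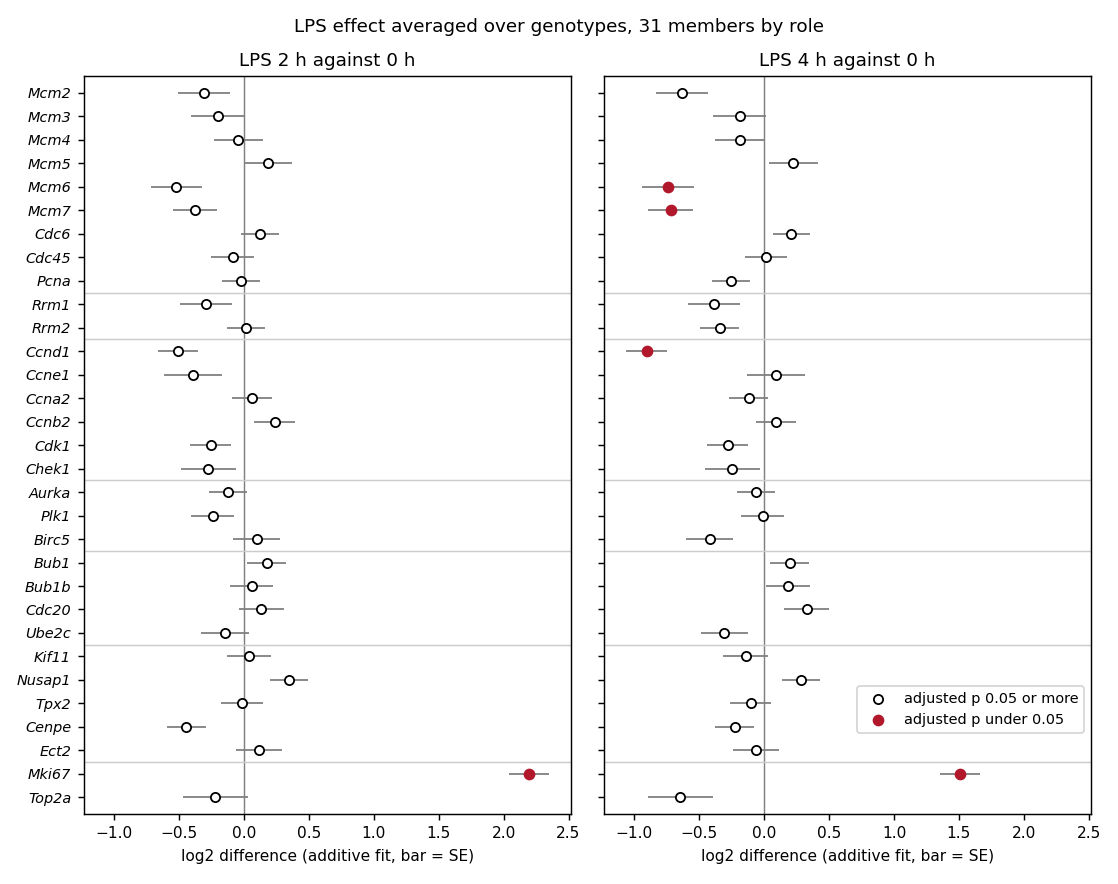
Log2 difference of LPS at 2 h (left) and 4 h (right) against 0 h for 31 cell cycle genes grouped by role, from the additive limma fit over 6 arrays, with bars for SE and filled red points for an adjusted p under 0.05. Mki67 is the filled point at 2.19 and at 1.51, and Ccnd1, Mcm6 and Mcm7 are the filled points below 0 at 4 h.

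The replication group held the helicase subunits Mcm2 to Mcm7, the loading factor Cdc6, the helicase activator Cdc45 and the clamp Pcna. At 4 h, 2 of these 9 genes fell and 0 rose, with a median difference of -0.19 and a range from -0.74 to 0.22. Mcm6 read 7.19, 6.45 and 6.06 in wild-type cells and 7.02, 6.71 and 6.66 in KO. Both unstimulated arrays were above all 4 stimulated ones, and the wild-type series dropped further than the KO series. Mcm6 fell by 0.74 at 4 h, to 59.8% of the 0 h level (SE 0.20, limma adjusted p = 0.0381), while the 2 h difference was -0.52 (adjusted p = 0.180). This call rests on the wild-type arrays, since it was lost without the wild-type 0 h array (-0.44, adjusted p = 0.177) or the wild-type 4 h array (-0.46, adjusted p = 0.282). It was also lost with probe sets of shared probes left out, where another Mcm6 probe set gave -0.75 (limma adjusted p = 0.0891). A further Mcm6 probe set above the floor gave -0.30 at 4 h, but its wild-type values rose.

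Mcm7 read 5.64, 4.99 and 4.77 in wild-type cells and 4.61, 4.50 and 4.04 in KO. Both series were lowest at 4 h, but the unstimulated KO array was already below every wild-type array. Mcm7 fell by 0.72 at 4 h, to 60.7% (SE 0.17, limma adjusted p = 0.0235). The call was lost without the wild-type 0 h array (-0.51, adjusted p = 0.0982), the wild-type 4 h array (-0.70, adjusted p = 0.0855) or the KO 4 h array (-0.74, adjusted p = 0.0598). Other Mcm7 probe sets above the floor gave -0.84 and -0.53 at 4 h.

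The other helicase subunits were not called. Mcm2 differed by -0.63 at 4 h (SE 0.20, limma adjusted p = 0.0701), and Mcm3 and Mcm4 by -0.19 each. Other Mcm3 probe sets above the floor gave 0.25, 0.16 and -0.10 at 4 h, so they disagree on its direction. Mcm5 read 5.52, 5.36 and 5.65 in wild-type cells and 5.35, 5.87 and 5.66 in KO. On the chosen probe sets it had the highest 4 h difference of the replication group, 0.22. Pcna read 8.93, 8.93 and 8.74 in wild-type cells and 8.70, 8.66 and 8.38 in KO. Its values were lowest at 4 h in each genotype, by small steps. For deoxynucleotide supply, the ribonucleotide reductase subunits Rrm1 and Rrm2 had 4 h differences of -0.39 and -0.34, and neither was called.

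Cyclins and their partners followed different courses. Ccnd1 encodes cyclin D1, which pairs with CDK4 and CDK6 to start the cycle in response to growth signals. It read 5.82, 5.33 and 4.77 in wild-type cells and 5.31, 4.78 and 4.55 in KO. The values declined at each step in both genotypes, and the wild-type 4 h array was below the KO 0 h array. Ccnd1 fell by 0.91 at 4 h, to 53.4% of the 0 h level (SE 0.16, limma adjusted p = 0.00555), with a 2 h difference of -0.51 (adjusted p = 0.104). The 4 h call held under all 13 other settings run, between -1.06 and -0.53, and the remaining Ccnd1 probe sets gave -0.43 and -0.25.

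Ccne1 encodes cyclin E1, which drives entry into S phase. It read 4.47, 3.96 and 4.08 in wild-type cells and 4.35, 4.08 and 4.92 in KO, and the KO 4 h array stood above the other 5. Its difference from 2 to 4 h was 0.48, the highest of the 31 genes (SE 0.22, limma adjusted p = 0.426). The other Ccne1 probe set read 3.45, 3.34 and 3.08 in wild-type cells and 3.66, 3.34 and 3.58 in KO. There the KO 0 h array was the highest. Ccnb2, a mitotic cyclin, read 3.21, 3.27 and 3.22 in wild-type cells and 2.75, 3.16 and 2.92 in KO, with a 2 h difference of 0.24. The mitotic kinase Cdk1 and the S phase cyclin Ccna2 differed by -0.28 and -0.12 at 4 h. Neither was called.

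The mitotic kinases Aurka and Plk1 and the chromosomal passenger protein Birc5 (survivin) were also not called in any LPS comparison. Plk1, which promotes entry into and passage through mitosis, read 3.18, 2.72 and 3.14 in wild-type cells and 2.89, 2.87 and 2.91 in KO, with a difference of 0.23 from 2 to 4 h. Birc5 read 4.49, 4.42 and 3.74 in wild-type cells and 3.62, 3.88 and 3.52 in KO. The wild-type 0 and 2 h arrays stood apart from the other 4. From 2 to 4 h Birc5 differed by -0.52 (SE 0.18, limma adjusted p = 0.245).

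The spindle checkpoint kinases Bub1 and Bub1b, the anaphase-promoting complex activator Cdc20 and its ubiquitin-conjugating enzyme Ube2c had 4 h differences from -0.31 to 0.33. Cdc20 had the highest of them, and read 3.59, 3.59 and 4.06 in wild-type cells and 3.19, 3.45 and 3.37 in KO. The wild-type 4 h array was the highest by a margin, and the fitted difference of 0.33 was not called (SE 0.17, limma adjusted p = 0.266). The other Cdc20 probe set above the floor gave 0.04 at 4 h.

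Of the 5 spindle, kinetochore and cytokinesis genes, 0 were called at 2 or 4 h in limma. Nusap1, a microtubule-binding spindle protein, read 4.44, 4.72 and 4.73 in wild-type cells and 4.39, 4.81 and 4.68 in KO. All 4 stimulated arrays were above both unstimulated ones, yet the differences of 0.35 at 2 h (SE 0.15, limma adjusted p = 0.235) and 0.29 at 4 h were not called. Cenpe, a kinetochore motor, read 3.50, 3.04 and 3.18 in wild-type cells and 3.39, 2.96 and 3.25 in KO. It was lowest at 2 h in both genotypes, with a difference of -0.44 (SE 0.15, adjusted p = 0.132) and a value of 0.21 from 2 to 4 h. The other Cenpe probe set gave -0.09 at 2 h and 0.26 at 4 h, with no 2 h dip in wild-type cells. The motor Kif11, the spindle factor Tpx2 and the cytokinesis regulator Ect2 had 4 h differences between -0.14 and -0.07.

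Top2a, the topoisomerase that untangles chromosomes in dividing cells and a common partner of Mki67 in proliferation signatures, took another course. It read 3.92, 4.24 and 3.75 in wild-type cells and 4.62, 3.86 and 3.50 in KO. On this probe set the KO arrays stepped down from 0 to 4 h, whereas the wild-type arrays peaked at 2 h. The other Top2a probe set above the floor read 4.44, 4.09 and 3.89 in wild-type cells and 3.76, 3.47 and 3.48 in KO, with no 2 h peak in wild-type and no high KO 0 h value. The differences of the first probe set were -0.22 at 2 h and -0.65 at 4 h (SE 0.25, limma adjusted p = 0.132), and -0.42 from 2 to 4 h. The other gave -0.32 and -0.42 at 2 and 4 h, so neither shared the direction of Mki67 at those times.

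**Figure D3:**
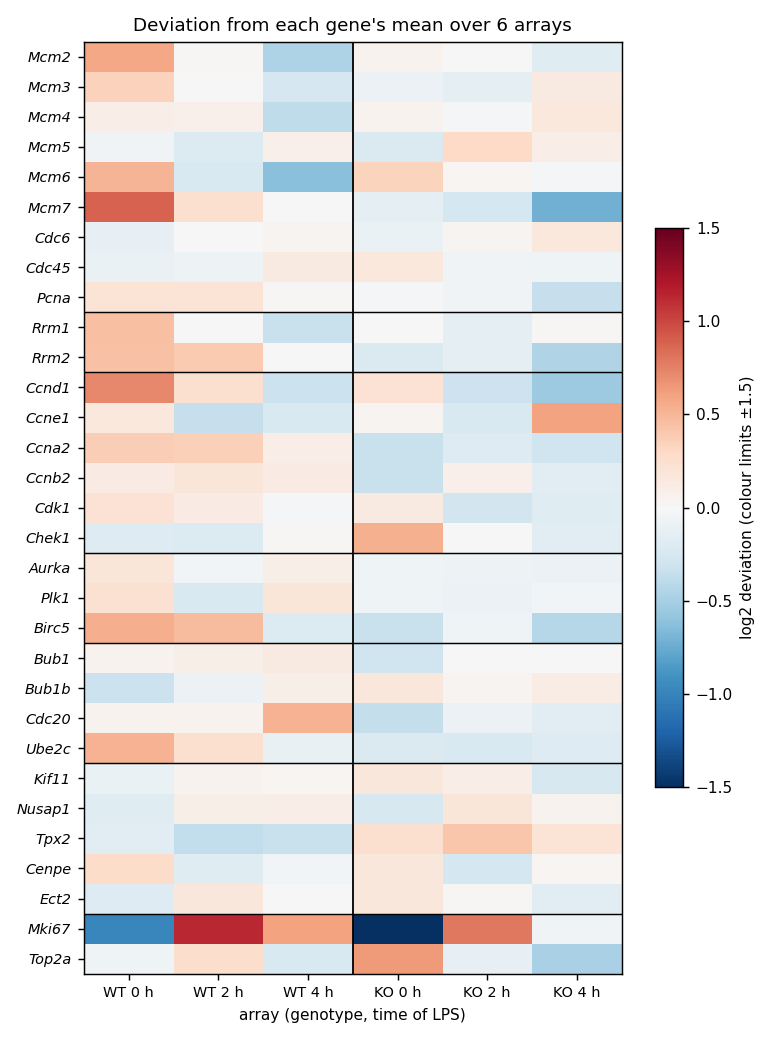
Log2 deviation of each of 31 cell cycle genes (y axis, grouped by role) from its own mean over the 6 arrays (x axis, wild-type then KO at 0, 2 and 4 h of LPS), with red above and blue below the mean and colour limits at ±1.5. Mki67 is deep blue on both 0 h arrays and red on both 2 h arrays, and the wild-type 0 h column is red for Mcm7, Ccnd1, Mcm2 and Mcm6.

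Cell type markers also changed with LPS, those of macrophages included. Over all tested genes, 3.96% rose and 2.89% fell at 2 h, and 7.76% rose and 7.61% fell at 4 h. Of 15 macrophage markers, 2 rose and 2 fell at 2 h, and 3 rose and 5 fell at 4 h. Of 8 resident macrophage markers, 1 rose at 2 h, and 2 rose and 3 fell at 4 h. Of 4 monocyte markers tested, 1 fell at 2 h and 2 at 4 h, Ccr2 and F13a1, and the average of the list was 7.30 to 7.77 on unstimulated and 6.26 to 7.16 on stimulated arrays. Of 5 B cell markers, Ighm fell at both times, and of 5 neutrophil markers S100a8 rose at both times. At 4 h, of 9 mesothelial and fibroblast markers Pdgfra rose, and of 5 T and NK cell markers Cd28 fell. Precursor markers, which mark dividing myeloid cells, had 0 of 3 called. The part of these shifts in the cell cycle results was not tested.

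Promoter sequences were searched for cell cycle motifs, as a description with no test. The windows run from 250 bases before to 50 bases after each start, from RefSeq on GRCm38.p6, and 29 of the 34 genes have an entry, with 31 windows. Ccna2, Aurkb, Mcm4, Ccnd1 and Tpx2 have no entry. Letters were searched on both strands for CCAAT (the NF-Y box), TTTGAA (the cell cycle genes homology region, bound by the DREAM complex) and the E2F-type letters TTTGGCGC, TTTCCCGC and TTTGCCGC. No motif contains another, and a CCAAT can overlap its own reverse by a few bases. CCAAT was found in 80.6% of the windows of these genes and 37.4% of all 32851 windows, TTTGAA in 45.2% and 17.9%, both in 45.2% and 6.95%, and the E2F-type letters in 16.1% and 1.99%.

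The motifs were spread by role. Of 12 windows of replication and nucleotide supply genes, 10 held CCAAT, 5 E2F-type letters and 2 TTTGAA. Of 12 windows of mitosis genes, 10 held CCAAT, 8 TTTGAA and 0 E2F-type letters, and with only the 250 bases before the start TTTGAA was in 5. The 250 bases before the start are printed for genes at the ends of the 4 h ranking, 5′ to 3′ on the strand of the gene, with those motifs in capitals. Mki67 rose, Top2a and Cdc20 carry the same pair of motifs but were not called, Nusap1 has none of the motifs and was not called, and Mcm6 and Mcm7 fell. Mki67 lies on the minus strand at chr7:135716380-135716629, Top2a on the minus strand at chr11:99024190-99024439, Cdc20 on the minus strand at chr4:118437344-118437593, Nusap1 on the plus strand at chr2:119618048-119618297 and Mcm6 on the minus strand at chr1:128359706-128359955. Mcm7 has 2 starts on the minus strand, with windows at chr5:138171267-138171516 and chr5:138171884-138172133.
Mki67: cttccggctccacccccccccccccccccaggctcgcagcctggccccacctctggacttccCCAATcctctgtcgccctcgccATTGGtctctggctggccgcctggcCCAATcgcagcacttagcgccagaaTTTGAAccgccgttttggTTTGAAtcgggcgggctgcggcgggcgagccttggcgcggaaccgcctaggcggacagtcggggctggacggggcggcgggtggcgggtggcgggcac
Top2a: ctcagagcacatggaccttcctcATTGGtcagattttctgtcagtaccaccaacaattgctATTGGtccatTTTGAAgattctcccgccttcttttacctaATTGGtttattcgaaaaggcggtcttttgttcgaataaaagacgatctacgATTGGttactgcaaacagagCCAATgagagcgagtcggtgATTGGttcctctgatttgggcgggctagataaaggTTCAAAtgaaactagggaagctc
Cdc20: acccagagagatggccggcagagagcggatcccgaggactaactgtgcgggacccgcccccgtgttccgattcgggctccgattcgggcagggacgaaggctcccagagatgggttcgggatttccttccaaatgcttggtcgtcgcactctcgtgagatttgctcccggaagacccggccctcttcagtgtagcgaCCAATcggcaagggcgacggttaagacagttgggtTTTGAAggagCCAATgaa
Nusap1: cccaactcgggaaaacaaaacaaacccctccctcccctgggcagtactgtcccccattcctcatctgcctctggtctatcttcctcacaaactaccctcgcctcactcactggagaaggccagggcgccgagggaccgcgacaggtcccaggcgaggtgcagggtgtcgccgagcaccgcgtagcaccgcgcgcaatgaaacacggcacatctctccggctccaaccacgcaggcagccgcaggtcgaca
Mcm6: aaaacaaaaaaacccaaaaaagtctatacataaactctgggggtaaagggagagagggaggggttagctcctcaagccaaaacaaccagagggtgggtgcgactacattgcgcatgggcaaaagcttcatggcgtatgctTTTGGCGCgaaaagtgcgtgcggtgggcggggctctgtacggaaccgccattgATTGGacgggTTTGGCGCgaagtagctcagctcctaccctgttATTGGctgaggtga
Mcm7 at chr5:138171267-138171516: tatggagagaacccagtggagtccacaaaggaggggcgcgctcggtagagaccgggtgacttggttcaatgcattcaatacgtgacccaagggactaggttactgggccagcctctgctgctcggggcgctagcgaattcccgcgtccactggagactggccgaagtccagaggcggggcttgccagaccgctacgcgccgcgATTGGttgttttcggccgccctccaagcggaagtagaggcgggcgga
Mcm7 at chr5:138171884-138172133: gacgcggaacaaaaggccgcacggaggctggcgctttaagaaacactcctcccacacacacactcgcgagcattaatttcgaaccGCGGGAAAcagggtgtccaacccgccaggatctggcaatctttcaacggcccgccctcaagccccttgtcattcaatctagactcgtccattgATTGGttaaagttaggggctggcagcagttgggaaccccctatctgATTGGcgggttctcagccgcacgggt

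The Mki67 window holds TTTGAA at 116 and 98 bases before the start, with CCAAT on both strands upstream of them. Cdc20 holds TTTGAA at 18 bases before the start, between a pair of CCAAT boxes. Mcm6 holds TTTGGCGC at 110 and 47 bases before the start and no TTTGAA. So the genes printed with CCAAT and TTTGAA include the gene with the highest LPS difference and others that were not called. A match of letters is a description and shows no binding.

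The genotype comparison asked whether loss of Akirin2 moved these genes at a constant distance over the 3 times. Its p-values measure that constancy and not the spread between animals. Of the 31 genes, 1 was called lower in KO and 0 higher, where 1.06% of all tested genes were lower and 0.891% higher. The called gene was Mcm7, whose values are given above. It was lower in KO by a log2 of 1.03, 0.50 and 0.73 at 0, 2 and 4 h, and the 3 KO arrays lay below the 3 wild-type arrays. The fitted difference was -0.75, a KO level of 59.4% of wild-type (SE 0.14, limma adjusted p = 0.0373).

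The Mcm7 probe sets disagree on this difference. Another one read 5.32, 4.58 and 4.38 in wild-type cells and 5.02, 4.64 and 4.29 in KO, which is a fitted -0.11 with overlapping genotypes, and a further one gave -0.22. With the mean of all Mcm7 probe sets the difference was -0.25 (limma adjusted p = 0.302). The call was also lost with each array centred by the median over the 13587 tested genes (-0.73, adjusted p = 0.0610) and without either 4 h array (-0.76, adjusted p = 0.0502). All Mcm7 probe sets carry suffixes that mark probes shared with other transcripts or transcript variants.

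Rrm2, the regulated subunit of ribonucleotide reductase, read 7.58, 7.55 and 7.14 in wild-type cells and 6.93, 7.0 and 6.69 in KO. Every KO array was below every wild-type array, and the difference of -0.55 was not called (SE 0.12, limma adjusted p = 0.0684). Another of its probe sets gave -0.48. Ccna2, whose cyclin A2 serves S phase and entry into mitosis, read 5.02, 5.01 and 4.75 in wild-type cells and 4.32, 4.45 and 4.35 in KO. Its genotypes did not overlap either, with a difference of -0.55 (SE 0.13, adjusted p = 0.0717) and -0.22 for its other probe set. Birc5 differed by -0.55 (adjusted p = 0.123), Mki67 by -0.51 (adjusted p = 0.0943), Ccnd1 by -0.42 (adjusted p = 0.161) and Cdc20 by -0.41 (adjusted p = 0.208). The remaining Ccnd1 probe sets gave -0.02 and 0.14. The other Cdc20 probe set above the floor gave -0.05, with overlapping genotypes.

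The largest positive difference was that of Tpx2, which activates Aurora A on the spindle. It read 4.98, 4.77 and 4.81 in wild-type cells and 5.39, 5.56 and 5.34 in KO. All KO arrays were above all wild-type arrays, but the difference of 0.58 was not called (SE 0.13, limma adjusted p = 0.0717), and another Tpx2 probe set gave 0.62. Ccne1 followed with 0.28 (adjusted p = 0.520). Chek1, the replication checkpoint kinase, came next with 0.25 (adjusted p = 0.542), and read 3.13, 3.13 and 3.34 in wild-type cells and 3.86, 3.32 and 3.17 in KO. The KO 0 h array of Chek1 stood apart from the other 5. Other Chek1 probe sets above the floor gave genotype differences between -0.18 and 0.11.

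**Figure D4:**
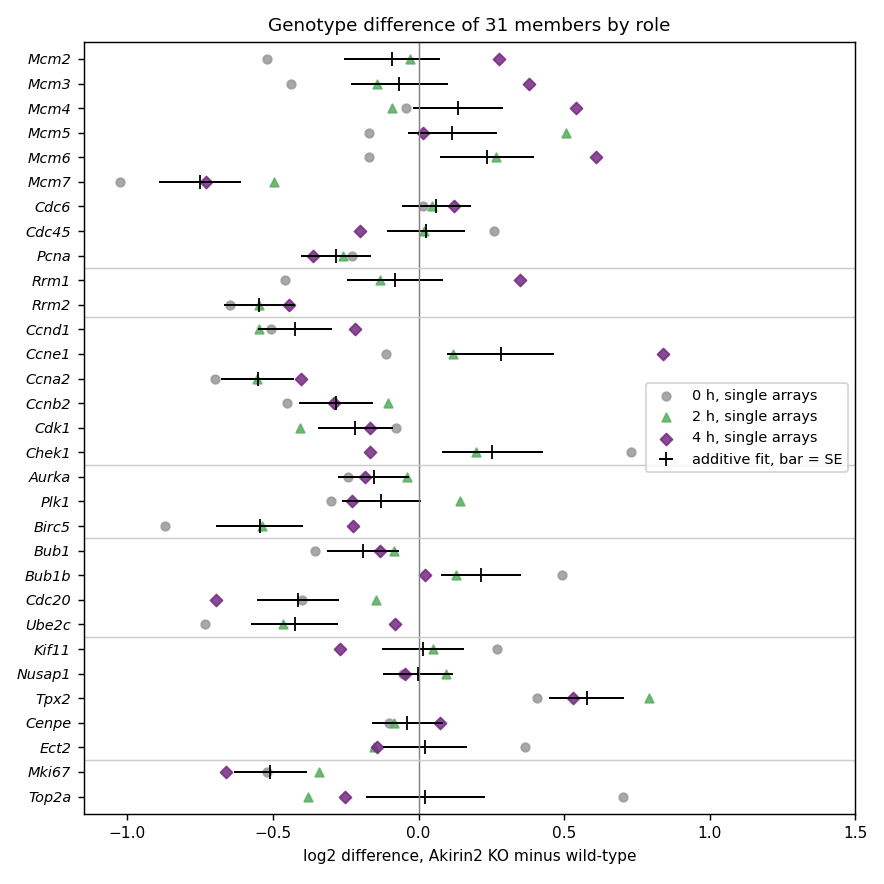
Log2 difference of Akirin2 KO minus wild-type (x axis) for 31 cell cycle genes grouped by role, with circles, triangles and diamonds for single arrays at 0, 2 and 4 h and black bars for the additive limma fit with its SE. All 3 points of Mcm7 lie below -0.4, all 3 of Tpx2 lie above 0.4, and those of Mcm2, Mcm6, Chek1 and Top2a fall on both sides of 0.

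In 9 of the 31 genes all 3 KO arrays were below all 3 wild-type arrays, against 6.2% of all tested genes. They were Mcm7, Pcna, Rrm2, Ccna2, Ccnb2, Aurka, Bub1, Cdc20 and Ube2c, of which Ccnb2, Aurka, Bub1, Cdc20 and Ube2c are low. Ccnb2, Aurka and Ube2c lay below the array medians in KO and passed the floor through wild-type arrays, so their place among these 9 is partly set by the floor. The other Aurka probe set above the floor gave 0.01, with overlapping genotypes. With no floor the count of genes with KO below was 9 of 33, beside 5.95% of all genes. It was 6 of 31 with arrays centred, beside 5.28%, and 7 of 31 with the mean of all probe sets, beside 6.03%. Tpx2 was the 1 gene with KO above, against 6.09% of all genes. At an unadjusted p under 0.05, 10 of the 31 genes passed, 9 lower and 1 higher in KO, which is 32.3% beside 15.4% of all genes. The median difference was -0.08, beside -0.01 over all genes. With a floor at the 75th percentile, the genes without overlap were 4 below and 1 above of 16 tested, beside 6.74% and 5.86% of all genes. The genes share their RNA samples, so a difference between preparations moves them together.

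Several measures of the samples differed between the genotypes. The difference between 3′ and 5′ Actb control probe sets, which grows as RNA shortens, was 4.22, 4.16 and 4.09 in wild-type cells and 4.64, 4.50 and 4.36 in KO, while for Gapdh it was 4.33, 4.33 and 4.42 in wild-type cells and 4.34, 4.52 and 4.44 in KO. The 10 mesothelial and fibroblast markers averaged 5.06 to 5.12 in wild-type cells and 4.55 to 4.85 in KO. Of these, 9 were tested, with a median difference of -0.62 and 1 gene called lower, Col1a2. Of 15 macrophage markers, C1qa, Fcgr1 and C1qc were lower in KO, and the list averaged 8.73 to 9.0 in wild-type cells and 8.47 to 8.65 in KO. Of 8 resident macrophage markers, with a median difference of -0.30, Cxcl13 was lower in KO by 1.27. The 5 T and NK cell markers had a median difference of -0.02, and only Cd28 was called, higher by 1.19 (limma adjusted p = 0.0203). Over all tested genes, 1.06% were called lower in KO and 0.891% higher. Their part in the genotype differences of the cell cycle genes was not tested.

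Whether LPS acted differently in the genotypes was tested with an interaction of genotype and stimulation. In limma 0 of the 31 genes were called, where 0.0294% of all genes were, and 4 had an unadjusted p under 0.05, which is 12.9% beside 12.8% of all genes. Top2a had the largest interaction, -1.02 (SE 0.25, adjusted p = 0.138), from the probe set with the high KO 0 h value, which its other probe set does not share. Chek1 followed with -0.71 (adjusted p = 0.282), from a probe set whose KO 0 h value stood apart. Mcm2 with 0.65 (adjusted p = 0.322) and Mcm6 with 0.61 (adjusted p = 0.357) had a smaller LPS decrease in KO. A further Mcm6 probe set, with lower values, went the other way. It read 3.41, 3.48 and 3.61 in wild-type cells and 4.12, 3.51 and 3.32 in KO. The interaction of Mki67 was 0.02 (SE 0.26, adjusted p = 0.982), and its single-array increases of 2.10 and 2.28 at 2 h in wild-type and KO lay close together.

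Pairs of single arrays, which carry no test, gave few genes past 2-fold. In wild-type, 1 of 31 was past 2-fold higher at 2 h, Mki67, where 2.26% of all genes were, and 0 were lower, beside 2.19%. At 4 h Mki67 was higher, beside 3.72% of all genes, and Mcm2, Mcm6 and Ccnd1 were lower, beside 4.75%. In KO, Mki67 was past 2-fold higher at both times, beside 2.44% and 4.07% of all genes. There 0 genes were past 2-fold lower at 2 h, beside 0.905%, and Top2a was at 4 h, beside 2.47%. Between genotypes, 1 gene was past 2-fold at 0 h, Mcm7, lower in KO beside 1.15% of all genes, and 0 were higher, beside 0.78%. At 2 h and 4 h 0 genes were past 2-fold either way, beside 0.949% and 1.45%. Centring each array by the median over the 13587 tested genes moved the median of all genes by 0.17 in the wild-type 4 h comparison and by 0.16 in the 0 h genotype comparison, and left Mki67 as the 1 gene past 2-fold in the former.

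Further genes of the cycle give context, and no list was tested as a set. For the counts below, the shares over all tested genes were 3.96% higher and 2.89% lower at 2 h. At 4 h they were 7.76% and 7.61%, and the medians over all genes were -0.04 at 2 h and -0.03 at 4 h. Between genotypes, 1.06% of all genes were lower in KO and 0.891% higher. Among 43 other replication genes, 0 rose and 6 fell at 2 h, and 2 rose and 5 fell at 4 h, with medians of -0.17 and -0.26. The licensing factor Cdt1, which loads MCM, read 9.05, 6.89 and 7.01 in wild-type cells and 8.76, 7.44 and 7.21 in KO, and fell by 1.74 at 2 h (limma adjusted p = 0.0018) and by 1.79 at 4 h (adjusted p = 0.000692). Gins1, Prim1 and Rfc1, of the fork helicase, primase and clamp loader, also fell at both times. The salvage kinase Dck (1.24) and the polymerase alpha subunit Pola2 (0.87) rose at 4 h. In KO, Dck was lower and the origin kinase Cdc7 higher.

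Among 53 other mitosis genes, 3 rose and 4 fell at 2 h, and 2 rose and 3 fell at 4 h, with a median of -0.10 at each time. Trip13, which acts on the spindle checkpoint, read 3.92, 4.80 and 5.76 in wild-type cells and 4.06, 4.61 and 5.94 in KO, a rise of 0.72 at 2 h (limma adjusted p = 0.035) and 1.86 at 4 h (adjusted p = 0.000154). Plk4, the centriole kinase, and Cks2, a CDK-binding protein, rose at 2 h, and the checkpoint gene Mad2l1 rose at 4 h. The phosphatase Cdc25b, the centromere histone Cenpa and the condensin subunit Ncapg fell at both times. In KO, securin (Pttg1) and Cks2 were lower, by 0.81 and 0.71 (adjusted p = 0.0158 and 0.0435).

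Of 10 G1 cyclins and kinases, 0 were called at 2 h, and at 4 h Ccnd2 (1.47) and Cdc25a (0.56) rose and Cdk7 fell, with medians of -0.09 and -0.0042. Ccnd2, the D-type cyclin related to Ccnd1, read 3.78, 4.08 and 5.95 in wild-type cells and 3.45, 3.47 and 4.23 in KO. Of 6 CDK inhibitors, Cdkn1a (p21) rose at both times, by 0.96 and 1.12, and Cdkn1b (p27) fell by 1.26 at 4 h, with medians of -0.02 and -0.07. Of 17 E2F, RB and DREAM factors, 1 rose and 2 fell at 2 h and 2 rose and 2 fell at 4 h, with medians of -0.06 and -0.02. The atypical repressor E2f8 rose by 1.47 and 1.04, Rb1 fell by 1.05 at 4 h, and the E2F partner Tfdp2 fell by 0.62 and 1.27.

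Of 19 growth arrest and p53 pathway genes, 4 rose and 5 fell at 2 h, and 2 rose and 7 fell at 4 h, with medians of -0.16 and -0.25. Gadd45a, a stress-induced growth arrest gene, read 5.49, 7.92 and 6.83 in wild-type cells and 4.89, 7.06 and 6.28 in KO, and rose by 2.30 at 2 h (limma adjusted p = 7.55e-05), while Trp53inp1 fell by 2.11 at 4 h. Between genotypes, Gadd45a was lower in KO, at -0.67, and Gadd45g higher, at 0.92 (limma adjusted p = 0.0383 and 0.0359). Of 9 Myc family genes, 0 rose at either time, and 2 fell at 2 h and 3 at 4 h, with medians of -0.13 and -0.25. Those 3 were Mxd4, Mnt and Mxi1, which antagonise MYC at shared sites, and Mxd4 fell furthest, by 2.74 at 4 h.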

How the data were processed

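Total RNA of 6 samples was amplified, biotin-labelled and hybridised to Affymetrix mouse arrays, per the labels' protocols. The deposited log2 values come from RMA according to the submitters' processing notes, and its version, probe definition and genome build are not stated in what was used here. There is no read depth, and the precision is limited by the number of arrays. Of 45101 probe sets, 34958 had 1 symbol, 932 several and 9211 none.

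Tests used lmFit and eBayes of limma 3.58.1 in R 4.3.3 with Benjamini-Hochberg adjustment over 13587 genes at 0.05, checked on simulated data. That simulation drew independent noise, so it says nothing about shifts shared within an array or the spread between animals. The additive fit left 2 residual degrees of freedom (prior 6.35), and the interaction fit left 1 (prior 11.5). Single arrays were compared by a 2-fold rule. The genes and lists were chosen with earlier results of these data known. Values on every array are given for called genes and for the 3 largest differences each way in each term of the additive fit; from other lists, at most the 4 largest called each way were named. Other settings changed the floor, probe sets, normalization, eBayes options, arrays used and fold rule.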

Additional observations from a re-analysis of the deposited data

Results flagged for a closer look

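In 5 of the 31 genes, both stimulated arrays of one genotype lay above their 0 h array and both of the other genotype lay below theirs, which held for 16.4% of all tested genes. The count is near that share, so it says nothing about the genes as a group. Each was then given its interaction of genotype with stimulation in limma, and 0 of the 5 passed. The same arrays picked the genes by direction, which sets the sign of the interaction, so it is no separate check. The helicase activator Cdc45 had an interaction of -0.35 (adjusted p = 0.608), with values above 0 h in wild-type and below it in KO. Bub1b, a spindle checkpoint gene, had -0.42 (adjusted p = 0.513), the spindle motor Kif11 had -0.38 (adjusted p = 0.579) and the cytokinesis gene Ect2 had -0.52 (adjusted p = 0.410), all in that same direction. The cyclin gene Ccna2 had 0.22 (adjusted p = 0.767), with stimulated arrays below 0 h in wild-type and above it in KO. Other probe sets above the floor shared the pattern for Kif11 but not for Cdc45 or Bub1b. The other Ccna2 probe set had the reverse pattern.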

How the results depend on the processing

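None of the results recomputed changed sign under the settings run. No paired analysis was possible because each condition has 1 array and the labels give no replicate numbers. Counts of called cell cycle genes moved as follows. At 2 h of LPS the count of 1 became 2 with trended, robust eBayes and 1 to 2 without single arrays, with 2 without either 0 h array. At 4 h the count of 4 became 2 without probe sets of shared probes (Mcm6 lost, Mcm7 not tested) and 2 to 7 without single arrays, with 7 without the KO 0 h array and 2 without the wild-type 4 h array. From 2 to 4 h the count of 0 became 1 with the mean of probe sets and with trended, robust eBayes, and 0 to 1 without single arrays, with 1 without either 0 h array. For genotype the count of 1 became 0 with the mean of probe sets, with arrays centred by the median over tested genes and without both 4 h arrays, 2 without both 0 h arrays, 4 with trended, robust eBayes (Mcm7, Mki67 and Rrm2 lower, Tpx2 higher), and 0 to 2 without single arrays, with 2 without either 0 h array and 0 without either 4 h array. It was also 0 without shared probe sets, where the 1 called gene, Mcm7, has no probe set left and was not tested. Without overlap of genotypes, 10 of 31 became 5 of 16 with a floor at the 75th percentile, where 5.86% of all genes had KO above and 6.74% below.

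For single arrays, the wild-type 4 h count of 4 became 1 with the mean of probe sets or centring, 2 with quantile normalization and 9 at 1.5-fold. The KO 4 h count of 2 became 1 with the mean and 4 at 1.5-fold. The genotype count at 0 h of 1 became 0 with the mean, with quantile normalization and with centring, and 7 at 1.5-fold, and was 0 without shared probe sets, where Mcm7 was not tested. At 1.5-fold the other counts became 3 (wild-type 2 h), 2 (KO 2 h), 1 (genotype 2 h) and 5 (genotype 4 h). Apart from Mcm7 having no probe set left, the cause was not tested.

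The interaction could not be fitted without single arrays, which leave no residual degree of freedom. With 1 array for each condition, the spread between animals is unknown, and 15 of 31 genes lie below the 75th percentile on every array.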
